A study of Mus musculus with 40 samples.

Results

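Transcript levels of 10 genes of the interleukin-1 (IL-1) family and of the inflammasomes were followed in CD11b+ myeloid cells sorted from mouse brains with and without gliomas. The genes were chosen by name: the ligands Il1a, Il1b and Il18, the inhibitors Il1rn, Il18bp and Il1r2, the sensors Nlrp3 and Aim2, and the inflammatory caspases Casp1 and Casp4. All 10 had a row among the 54513 rows of each of 3 deposited expression tables, of which 21907 were annotated as protein coding, and all 10 passed the minimum mean of 1 RPKM (reads scaled to transcript length and library size) in every comparison.

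The study asked how 7aaRGD, a peptide that blocks SPP1/integrin signaling, alone or with PD-1 blockade, changes glioma-associated myeloid cells, and used 7aaRAE, the same peptide with its RGD motif changed to RAE, as the control peptide. All mice were 10 to 12 weeks old by the study's methods. In the first table, male C57BL/6 mice carried GL261 tdTomato+luc+ gliomas, a murine line implanted into the right striatum. They received water as vehicle, 7aaRGD or 7aaRAE, the peptides at 2 mg/ml from an osmotic pump into the tumor, and were analyzed at 21 days post-implantation (DPI) beside naïve mice without tumors, with 3 samples per group and 2 animals pooled per sample. In the second table, single mice were analyzed at 28 DPI after vehicle (4 samples), 7aaRGD (4), anti-PD-1 antibody at 10 mg/kg intraperitoneally (aPD-1, 3) or both (RGD + aPD-1, 3), and groups without aPD-1 received IgG. In the third table, male Athymic Nude-Foxn1nu mice, which lack mature T cells, carried U87-MG RFP+ gliomas, a human line, and received vehicle, 7aaRGD or 7aaRAE until 21 DPI, with 3 samples per group and 2 animals pooled per sample. The labels of the 28 DPI samples name nude mice while the methods describe GL261 gliomas in C57BL/6 mice. H2-Ea-ps, which C57BL/6 mice do not express, was at most 0.0554 RPKM in the 12 GL261 samples of 21 DPI, at most 0.0976 RPKM in the 14 samples of 28 DPI, and between 22.5 and 374 RPKM in the 9 U87-MG samples. A labelled sample each of aPD-1 and RGD + aPD-1 and the 3 naïve nude samples were not analysed here.

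IL-1α and IL-1β bind the same signaling receptor, while the receptor antagonist encoded by Il1rn occupies it without signaling and the decoy receptor encoded by Il1r2 captures ligand. IL-1β and IL-18 are made as precursors that caspase-1 cleaves inside inflammasomes, multiprotein complexes assembled by sensors such as NLRP3 and the DNA receptor AIM2, and the binding protein encoded by Il18bp neutralizes mature IL-18. Transcript levels do not show whether a precursor was cleaved or released.

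Markers of CD11b+ myeloid cells (Itgam, Ptprc, Csf1r, Aif1, Cd68 and Tyrobp) had a group mean above 1 RPKM in every group of the 3 tables. The number of protein-coding genes at or above 1 RPKM ranged from 9330 to 9823 per sample. The tables hold no counts, so the sequencing depth is unknown and no counting interval was computed. In such bulk samples, fewer cells of a type and less RNA per cell cannot be told apart.

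In GL261 gliomas, 7 of the 10 genes were higher with vehicle than in naïve mice and 3 were lower (limma on log2(RPKM + 1), Benjamini-Hochberg adjusted p below 0.05 over 9731 genes). Over all genes tested, 34.6% were higher and 48.2% lower, and the sample ranges of the groups did not overlap for 85.4%, as for all 10 members. The median log2 fold change was 1.71 over the members and -0.14 over all genes. The genes for the inhibitors rose from below 1 RPKM and Il1b from a mean of 16.7 RPKM, whereas Il1a, Nlrp3 and Aim2 fell slightly.

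Among the ligands, Il1b (chr2:129364570-129371139, minus strand, mm10), the gene for the secreted pyrogenic cytokine, was at 15.4, 16.0 and 18.7 RPKM in naïve samples and at 446, 439 and 473 RPKM with vehicle. The groups were far apart, and in the vehicle group Il1b ranked 91 among the 21907 protein-coding genes by mean level. Its mean was 27.1-fold higher with vehicle (log2 fold change 4.68, SE 0.078, adjusted p = 4.361e-09). Il1a (chr2:129299610-129309972, minus strand), which lies 54597 bases from Il1b and encodes the largely cell-bound alarmin, did not rise with it in this comparison. It was at 28.3, 28.6 and 28.8 RPKM in naïve samples and at 24.4, 26.0 and 20.0 RPKM with vehicle, a log2 fold change of -0.28 (SE 0.090, adjusted p = 0.01867). The ranges did not overlap, but the call was the least stable of the 10. It was lost when naïve sample 2 (adjusted p = 0.05288) or naïve sample 3 (adjusted p = 0.05668) was left out, and the value was -0.18 without vehicle sample 3. It was also lost when the samples were rescaled by TMM (trimmed mean of M values; -0.12, adjusted p = 0.2599) or median-of-ratios factors (-0.12, adjusted p = 0.2775), which move the median of all genes to 0.001 and 0.005. Il18 (chr9:50554827-50581840, plus strand), the interferon-γ-inducing ligand, was at 16.8, 16.0 and 15.9 RPKM in naïve samples and at 20.0, 20.1 and 22.8 RPKM with vehicle. The vehicle samples were all higher, with a mean 1.29-fold that of naïve samples (log2 fold change 0.35, SE 0.065, adjusted p = 0.001124).

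All 3 inhibitor genes were below 1 RPKM in naïve samples. Il1rn (chr2:24336853-24351494, plus strand) was at 0.226, 0.220 and 0.214 RPKM in naïve samples and at 95.8, 121 and 162 RPKM with vehicle. Its mean of 126 ± 33.2 RPKM (SD, n = 3) was 574-fold the naïve mean (log2 fold change 6.67, SE 0.16, adjusted p = 1.637e-08), the largest fold change of the 10. Il18bp (chr7:102014885-102018690, minus strand) was at 0.617, 0.590 and 0.493 RPKM in naïve samples and at 40.9, 69.1 and 66.9 RPKM with vehicle, 104-fold higher on average (log2 fold change 5.22, SE 0.18, adjusted p = 7.853e-08). Il1r2 (chr1:40074079-40125231, plus strand) was at 0.546, 0.324 and 0.444 RPKM in naïve samples and at 25.0, 19.9 and 32.0 RPKM with vehicle. No sample of either group came near the other, and the mean was 58.5-fold higher with vehicle (log2 fold change 4.19, SE 0.15, adjusted p = 1.011e-07). Folds of these low naïve levels depend on the constant added before taking logs, and with 5 in place of 1 the log2 fold change of Il1r2 was 2.48.

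The sensors moved the other way. Nlrp3 (chr11:59541568-59566956, plus strand), whose product responds to potassium efflux and membrane damage, was at 35.8, 31.7 and 31.7 RPKM in naïve samples and at 21.4, 18.3 and 23.4 RPKM with vehicle. Every vehicle sample was below every naïve sample, and the naïve mean was 1.57-fold higher (log2 fold change -0.63, SE 0.094, adjusted p = 0.000316). Aim2 (chr1:173350879-173466040, plus strand) was at 14.6, 13.7 and 14.5 RPKM in naïve samples and at 9.82, 10.8 and 11.7 RPKM with vehicle (log2 fold change -0.38, SE 0.070, adjusted p = 0.001186). Rescaling reduced the Aim2 difference to -0.22 with TMM factors (adjusted p = 0.04383) and to -0.22 with median-of-ratios factors (adjusted p = 0.01785).

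Both caspase genes rose. They are neighbors on chromosome 9, 1562 bases apart on the plus strand: Casp1 (chr9:5298517-5307265) encodes the protease that cleaves IL-1β and IL-18, and Casp4 (chr9:5308828-5336783) the sensor of cytosolic lipopolysaccharide in the non-canonical inflammasome. Casp1 was at 8.94, 8.51 and 9.60 RPKM in naïve samples and at 16.8, 19.8 and 21.5 RPKM with vehicle, 2.15-fold higher on average (log2 fold change 1.02, SE 0.091, adjusted p = 1.37e-05). Casp4 was at 3.29, 2.62 and 2.98 RPKM in naïve samples and at 15.6, 21.4 and 22.9 RPKM with vehicle, 6.74-fold higher on average (log2 fold change 2.39, SE 0.14, adjusted p = 9.187e-07). Neither gene had overlapping groups, and Casp4 went from a level below that of Casp1 to one close to it.

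**Figure D1:**
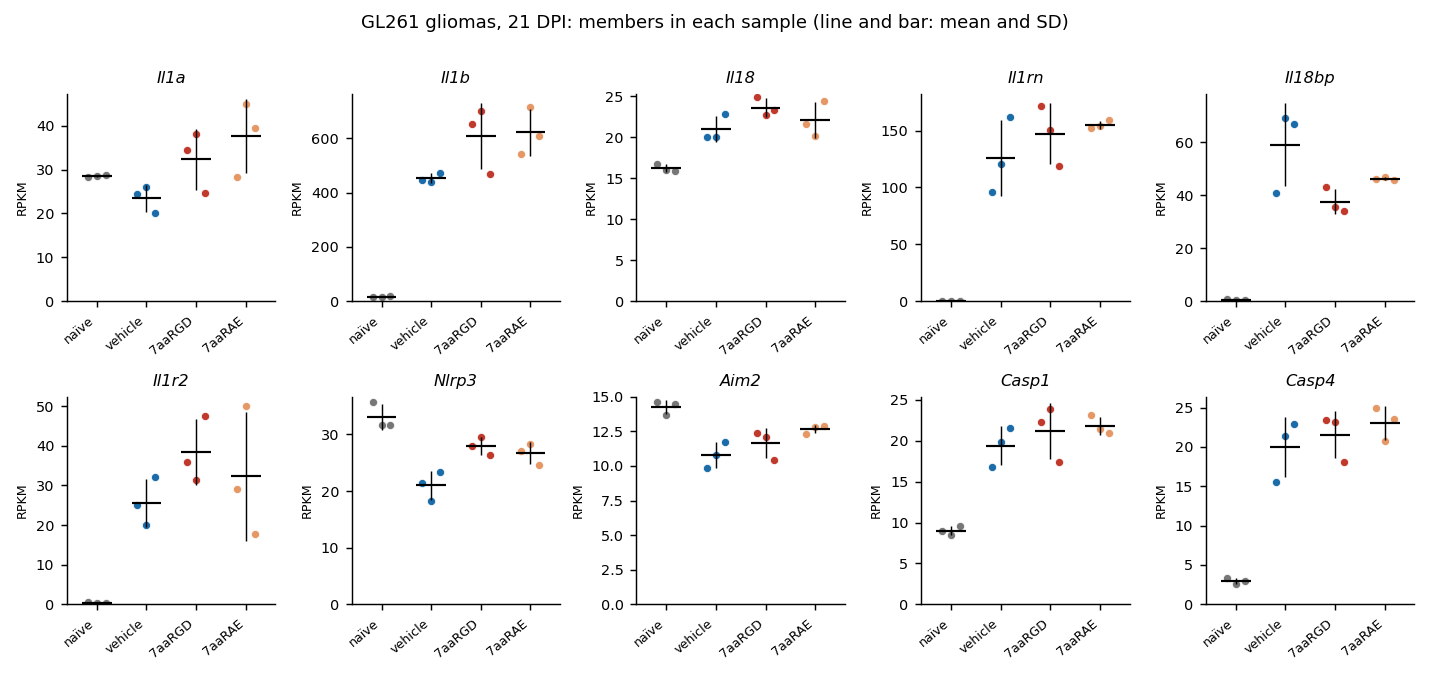
RPKM (vertical axis, starting at 0) of the 10 genes in each GL261 sample of 21 DPI and of naïve mice; points are samples, lines are means and bars SD (n = 3). Il1b, Il1rn, Il18bp and Il1r2 sit near 0 or below 20 RPKM in naïve samples and far above in the 3 tumor-bearing groups, while Il1a, Nlrp3 and Aim2 are lower with vehicle than in naïve samples.

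The cell mixture of the naïve and tumor samples was also different, and its part in these differences was not tested. Markers of microglia, the resident macrophages of the brain, summed to between 16198 and 16764 RPKM in naïve samples and between 1351 and 1971 RPKM with vehicle, and 9 of 9 were lower. Markers of monocytes summed to between 22.4 and 24.5 RPKM in naïve samples and between 955 and 1315 RPKM with vehicle, and 6 of 6 were higher. Neutrophil markers summed to between 427 and 553 RPKM in naïve samples and between 138 and 280.4 RPKM with vehicle, and 7 of 10 tested were lower and 1 higher. Dendritic cell markers summed to between 13.4 and 16.1 RPKM in naïve samples and between 65.9 and 74.2 RPKM with vehicle (2 of 3 tested higher), and markers of NK and T cells to between 0.308 and 0.845 RPKM and between 8.50 and 26.1 RPKM (2 of 2 tested higher). Interferon response genes rose from between 38.7 and 41.2 to between 1403 and 2027 RPKM (9 of 9 higher). Immediate early and dissociation response genes summed to between 659 and 776 RPKM in naïve samples and between 1586 and 2142 RPKM with vehicle (4 of 8 higher, 2 lower).

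The genes around the members passed about as often as all genes tested, of which 82.8% passed in either direction. Of 12 tested genes of IL-1 receptors and signaling, 6 were higher and 4 lower with vehicle (median log2 fold change 0.17). Irak3, an inhibitor of IL-1 receptor signaling, was higher by 1.78, and the adaptor gene Myd88 by 1.35. Il1rap, the co-receptor gene, was higher by 0.71, Traf6 and Irak1, which act downstream of MyD88, by 0.52 each, and Tab2 was lower (-0.86). The receptor gene Il1r1 itself was too low to be tested, at 0.372 ± 0.0619 RPKM in naïve samples and 0.290 ± 0.186 RPKM with vehicle (SD, n = 3). Of 3 tested genes for other IL-1 family ligands and receptors (median 0.066), Il18rap, an IL-18 receptor subunit, was higher by 1.69 and Il1rl1, the IL-33 receptor, lower (-1.33). Of 19 other inflammasome genes tested, 12 were higher and 4 lower (median 0.39). The guanylate-binding protein genes Gbp2 (6.72) and Gbp5 (3.30), Ifi204 (5.27), the pyrin gene Mefv (4.58) and Nlrc4 (2.13) were higher, and the ATP receptor gene P2rx7 was lower (-1.38).

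The promoters of the members were searched for 3 motifs, because several members and the interferon response genes were higher with vehicle than in naïve samples. A link between them was not tested. All 10 members had entries in the RefSeq-derived table of promoters (GRCm38.p6), and the 250 bases before each listed start were searched on both strands. The interferon-stimulated response element (GAAA, any 2 bases, GAAA) was present in 2.98% of 32851 promoters and in 0 members. The gamma-activated site TTCNNNGAA was present in 7.02% of promoters and in 1 member (Il1r2), and the NF-κB site (GGG, any 2 bases, TTTCC) in 1.41% of promoters and in 2 members (Casp4 and Il1rn). The shares count listed promoters, while a member counts if any of its listed promoters matched, so they are not directly comparable. Il1rn also had windows without a match. A window with a match is shown for each of these 3 genes, 5′ to 3′ on the plus strand, with the matched letters in capitals: chr1:40085843-40086092 for Il1r2, chr2:24345121-24345370 for Il1rn and chr9:5308599-5308848 for Casp4. The starts after the Il1r2, Il1rn and Casp4 windows lie inside the annotated genes. Il1rn and Casp4 have further listed starts, and no matches of different motifs overlapped in the members. A match is a description of the letters and not a bound site.
Il1r2: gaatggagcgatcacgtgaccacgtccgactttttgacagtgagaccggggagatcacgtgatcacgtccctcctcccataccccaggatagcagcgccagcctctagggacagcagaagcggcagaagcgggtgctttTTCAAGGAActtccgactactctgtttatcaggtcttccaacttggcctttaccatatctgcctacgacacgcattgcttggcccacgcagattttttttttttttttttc
Il1rn: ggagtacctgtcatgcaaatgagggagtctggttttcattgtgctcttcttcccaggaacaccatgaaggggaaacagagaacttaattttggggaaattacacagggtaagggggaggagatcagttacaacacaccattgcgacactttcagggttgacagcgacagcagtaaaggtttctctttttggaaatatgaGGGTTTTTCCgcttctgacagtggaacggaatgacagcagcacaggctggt
Casp4: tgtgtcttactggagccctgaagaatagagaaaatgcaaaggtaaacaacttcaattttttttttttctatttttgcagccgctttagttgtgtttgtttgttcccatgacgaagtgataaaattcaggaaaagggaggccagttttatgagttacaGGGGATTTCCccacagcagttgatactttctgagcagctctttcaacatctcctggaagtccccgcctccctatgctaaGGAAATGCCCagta
In Il1r2 the match lies 111 to 103 bases before the start, and in Il1rn 51 to 42 bases before it. Casp4 holds 2 matches, 93 to 84 bases before the start on the plus strand and 14 to 5 bases before it on the minus strand.

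In GL261 gliomas at 21 DPI, none of the 10 genes passed the test between 7aaRGD and vehicle (limma, 0 of 10 after adjustment and 4 of 10 at an unadjusted p below 0.05). Over all 9444 genes tested, 14 (0.148%) passed and 1280 had an unadjusted p below 0.05. The 14 became 125 without vehicle sample 3 and 0 or 1 without any other sample of the 2 groups. The log2 fold changes of 9 members were above 0, with a median of 0.20 beside 0.021 over all genes. The ranges of the samples did not overlap for 1 member, Nlrp3, as for 17.6% of all genes.

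Nlrp3 was at 27.9, 29.6 and 26.3 RPKM with 7aaRGD against 21.4, 18.3 and 23.4 RPKM with vehicle. All 3 treated samples were above all 3 vehicle samples and below all 3 naïve samples, and the log2 fold change was 0.40 (95% interval 0.19 to 0.61, adjusted p = 0.1618). Il1b was at 653, 701 and 470.2 RPKM with 7aaRGD, so that 1 treated sample fell among the vehicle samples. Il18bp had the single value below 0, with 42.9, 35.7 and 34.1 RPKM under 7aaRGD beside 40.9, 69.1 and 66.9 RPKM with vehicle. Its ranges overlapped through vehicle sample 1, and the 95% interval of the log2 fold change was -0.999 to -0.21. Il1a (34.4, 38.1 and 24.6 RPKM) and Il1r2 (36.0, 31.4 and 47.6 RPKM) overlapped with vehicle, with intervals of 0 to 0.87 and -0.16 to 1.29. Il1rn was at 172, 151 and 119 RPKM and Il18 at 24.9, 22.7 and 23.3 RPKM, with log2 fold changes of 0.24 and 0.17. Aim2, Casp1 and Casp4 differed least, with log2 fold changes of 0.10, 0.12 and 0.11. Microglial markers summed to between 2029 and 2693 RPKM with 7aaRGD, above all vehicle samples (1351 to 1971 RPKM), but 0 of 9 passed. Markers of NK and T cells summed to between 22.2 and 58.3 RPKM beside 8.50 and 26.1 RPKM with vehicle (0 of 5 tested passed). Dendritic cell markers summed to between 80.1 and 96.1 RPKM with 7aaRGD and 65.9 and 74.2 RPKM with vehicle (0 of 4 tested passed). With 7aaRAE the sums were 1756 to 2227 RPKM for microglia, 8.39 to 30.6 RPKM for NK and T cells and 68.3 to 91.2 RPKM for dendritic cells. All 9 microglial genes had log2 fold changes above 0 with either peptide (medians 0.43 with 7aaRGD and 0.24 with 7aaRAE). The part of these cells in the values was not tested.

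The control peptide gave values of the same kind. Between 7aaRAE and vehicle, 0 of 10 members and 0 of 9444 genes (0%) passed the test in limma, while 4 members and 601 genes had an unadjusted p below 0.05. Again 9 of the 10 values were above 0 (median 0.22, all genes 0.005), and since both comparisons use the same 3 vehicle samples their likeness is not independent. Il1a, Il1b, Nlrp3 and Aim2 did not overlap with vehicle, 4 of 10 beside 12.6% of all genes. Il1a was at 28.4, 44.9 and 39.6 RPKM (log2 fold change 0.64, 95% interval 0.21 to 1.08) and Il1b at 544, 716 and 608 RPKM (0.45, 0.12 to 0.79). Nlrp3 was at 27.1, 28.4 and 24.6 RPKM (0.33, 0.12 to 0.54) and Aim2 at 12.3, 12.8 and 12.9 RPKM (0.22, 0.036 to 0.40). All 4 had an adjusted p of 0.7177.

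Compared directly at the same dose and day, no member passed the test between 7aaRGD and 7aaRAE (limma, 0 members and 0 of 9444 genes, 0%, after adjustment, 0 members and 521 genes at an unadjusted p below 0.05). The members' median log2 difference was -0.07, beside 0.016 over all genes. The interval of the difference was -0.38 to 0.29 for Il1b, -0.64 to 0.23 for Il1a and -0.15 to 0.27 for Nlrp3. Il18bp was the 1 member without overlap, a state shared by 11.4% of all genes, at 42.9, 35.7 and 34.1 RPKM with 7aaRGD and 46.2, 46.7 and 45.7 RPKM with 7aaRAE. Its log2 difference was -0.30 with an interval of -0.69 to 0.097 (adjusted p = 0.9918). Il1r2 had the widest interval, -0.38 to 1.06.

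No gene of the 3 surrounding lists passed in these peptide comparisons (limma, 0 in each list). The genes with the largest values were Irak2 (0.32, adjusted p = 0.2567), the IL-36 receptor gene Il1rl2 (-0.54, adjusted p = 0.4493) and Nlrp1b (-0.21, adjusted p = 0.4916) between 7aaRGD and vehicle. They were Irak2 (0.26, adjusted p = 0.7177), Il1rl2 (-0.28, adjusted p = 0.8293) and Gbp5 (0.29, adjusted p = 0.7953) between 7aaRAE and vehicle. Between the peptides they were Irak3 (-0.23, adjusted p = 0.7751), Il1rl2 (-0.26, adjusted p = 0.9918) and Nlrp1b (-0.30, adjusted p = 0.8571).

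In the 28 DPI experiment, none of the 10 genes passed the test between 7aaRGD alone and vehicle. In limma, 0 of 10 passed after adjustment and 0 at an unadjusted p below 0.05, while 63 of 9740 genes (0.647%) passed and 1423 had an unadjusted p below 0.05. The 63 fell to 0 or 1 when any 1 sample of the 2 groups was left out. The ranges overlapped for all 10, whereas 8.02% of all genes did not overlap, and the median log2 fold change was -0.032 beside 0.015 over all genes. Nlrp3, which did not overlap at 21 DPI, was at 25.7, 19.5, 16.8 and 25.8 RPKM with 7aaRGD and at 22.3, 15.9, 22.3 and 17.2 RPKM with vehicle (log2 fold change 0.16, interval -0.18 to 0.50). Il18bp was at 44.4, 70.1, 71.7 and 40.2 RPKM with 7aaRGD and at 66.6, 78.9, 54.3 and 58.2 RPKM with vehicle (-0.22, interval -0.62 to 0.19). The 2 experiments differed in day, pooling of animals and antibody, so these values stand side by side without a test. The intervals were -0.90 to 0.50 for Il1b, -0.49 to 0.48 for Il1rn and -0.88 to 0.27 for Il1r2, and lay between -0.31 and 0.30 for Il18, Aim2, Casp1 and Casp4.

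With aPD-1, 3 of the 10 genes were higher than with vehicle and 1 was lower, whereas 10.8% of all genes were higher and 12.2% lower. The antagonist gene Il1rn and both caspase genes rose and the decoy receptor gene Il1r2 fell. The median log2 fold change was 0.27 over the members and -0.005 over all genes. The sample ranges did not overlap for 4 of the 10 members, beside 32.4% of all genes.

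Il1r2 was at 103, 56.1, 72.9 and 79.4 RPKM with vehicle and at 15.6, 25.9 and 12.7 RPKM with aPD-1. Every aPD-1 sample was below every vehicle sample, and the vehicle mean was 4.31-fold higher (log2 fold change -2.08, SE 0.29, 95% interval -2.70 to -1.45, adjusted p = 0.000468). Il1rn was at 12, 19.4, 25.1 and 20.2 RPKM with vehicle and at 44.4, 54.2 and 49.9 RPKM with aPD-1. The aPD-1 samples were all higher, with a mean 2.58-fold that of vehicle (log2 fold change 1.36, SE 0.24, adjusted p = 0.00195). The 2 inhibitors of IL-1 therefore moved in opposite directions, and the inhibitor of IL-18 did not pass the test: Il18bp was at 63.3, 71.6 and 87.3 RPKM with aPD-1 (log2 fold change 0.20, interval -0.24 to 0.63).

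Casp4 was at 8.73, 7.88, 10.4 and 8.70 RPKM with vehicle and at 14.0, 11.1 and 13 RPKM with aPD-1, without overlap and 1.42-fold higher on average (log2 fold change 0.47, SE 0.11, adjusted p = 0.007614). Casp1 was at 15.2, 10.4, 15.3 and 13.9 RPKM with vehicle and at 20.4, 18.9 and 18.1 RPKM with aPD-1, without overlap and 1.40-fold higher (log2 fold change 0.47, SE 0.13, adjusted p = 0.02132). The Casp1 call was lost without aPD-1 sample 1 (0.42, adjusted p = 0.07369) or aPD-1 sample 2 (0.48, adjusted p = 0.05996). The ligand genes and sensors overlapped with vehicle. Il1b was at 201, 250.2 and 98.7 RPKM with aPD-1 beside 226, 112, 119 and 104 RPKM with vehicle (log2 fold change 0.36, interval -0.40 to 1.11). Nlrp3 (0.33, interval -0.035 to 0.70), Il18 (0.13, -0.087 to 0.36), Aim2 (0.072, -0.13 to 0.28) and Il1a (0.009, -0.53 to 0.55) did not pass either.

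With RGD + aPD-1, 5 of the 10 genes were higher than with vehicle and 1 was lower, beside 17.5% of all genes higher and 25.7% lower. The genes that passed with aPD-1 alone passed in the same direction, and Il1b and Nlrp3 were also higher. The median log2 fold change was 0.39 over the members and -0.049 over all genes. The sample ranges did not overlap for 5 of the 10 members, beside 48.8% of all genes. Both comparisons share the vehicle samples.

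Il1b was at 448, 217 and 453 RPKM with RGD + aPD-1. Of these samples, 2 were above all others of the experiment, while the lowest lay under vehicle sample 1 (226 RPKM) and above the other 3 vehicle samples. The mean was 2.66-fold that of vehicle (log2 fold change 1.40, SE 0.35, interval 0.65 to 2.16, adjusted p = 0.005828), and between 1.22 and 1.75 when each sample was left out in turn. Nlrp3 was at 34.8, 25.8 and 33.1 RPKM, above all 4 vehicle samples, and 1.61-fold higher on average (log2 fold change 0.66, SE 0.17, adjusted p = 0.006846). Il1rn was at 77.0, 60.5 and 51.7 RPKM, above all vehicle samples and 3.29-fold higher on average (log2 fold change 1.69, SE 0.24, adjusted p = 0.0001283). Il1r2 was at 16.7, 18.8 and 21.0 RPKM, below all vehicle samples, and the vehicle mean was 4.14-fold higher (log2 fold change -1.97, SE 0.29, adjusted p = 0.0001588). Casp1 (19.4, 20.8 and 22.9 RPKM) and Casp4 (15.6, 12.1 and 14.3 RPKM) lay above all vehicle samples. They were higher by 0.60 each on the log2 scale (adjusted p = 0.002658 and 0.000667).

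The other 4 genes overlapped with vehicle and did not pass. Il18 was at 17.5, 15.8 and 18.7 RPKM with RGD + aPD-1 and at 18.3, 16.7, 19.1 and 15.8 RPKM with vehicle (log2 fold change -0.010, interval -0.23 to 0.21). Aim2 was at 16.6, 14.9 and 14.4 RPKM beside 15.5, 14.3, 17.1 and 14.1 RPKM (0.006, interval -0.20 to 0.21). Il18bp was at 62.5, 66.2 and 81.1 RPKM (0.12, interval -0.31 to 0.56). Il1a was at 58.9, 29.7 and 41.3 RPKM beside 40.8, 40.9, 27.9 and 37.7 RPKM with vehicle (0.19, interval -0.35 to 0.73).

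**Figure D2:**
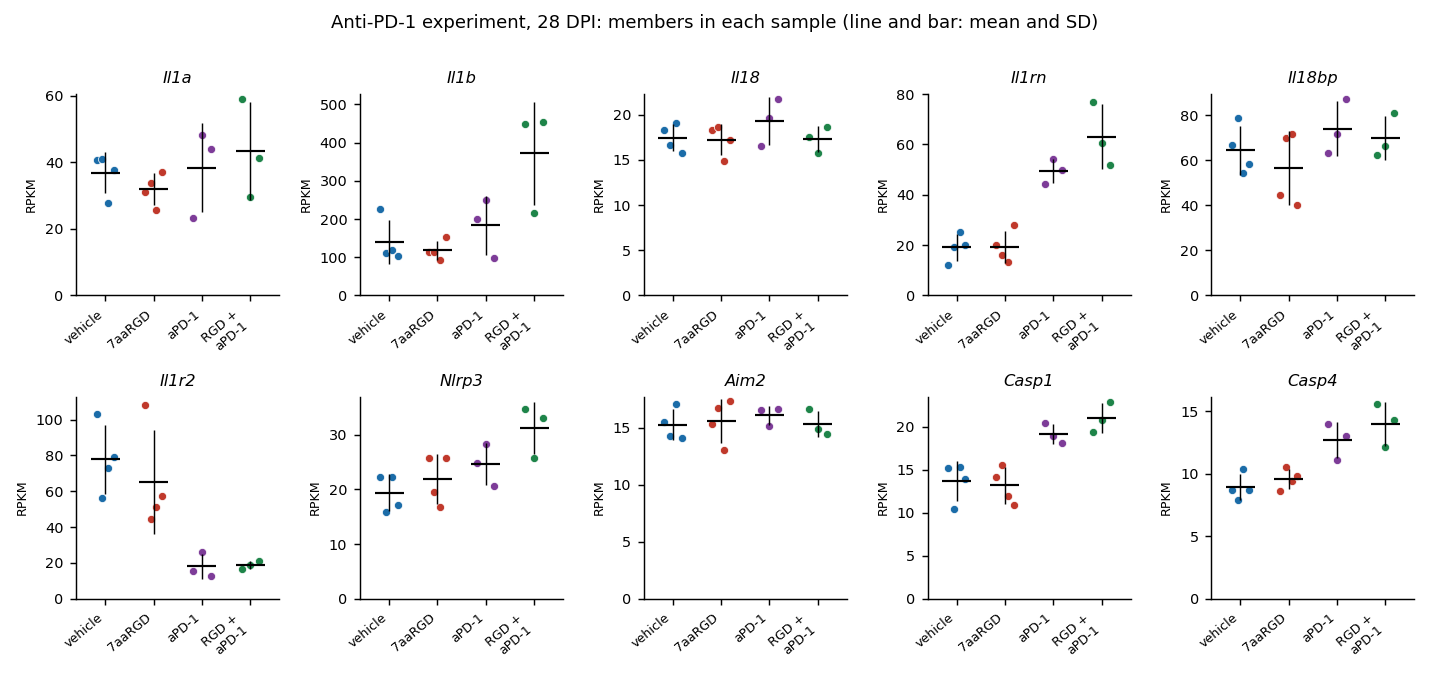
RPKM (vertical axis, starting at 0) of the 10 genes in each sample of the 28 DPI experiment; points are samples, lines are means and bars SD (n = 4 for vehicle and 7aaRGD, n = 3 for aPD-1 and RGD + aPD-1). Il1r2 lies between 12.7 and 25.9 RPKM in the 6 samples with aPD-1 and between 44.4 and 108 RPKM in the 8 without it, and Il1rn shows the opposite order.

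Whether 7aaRGD added to aPD-1 was addressed by comparing the combination with aPD-1 alone. In limma 0 of 10 members passed after adjustment and 1 (Il1b) had an unadjusted p below 0.05, while 4 of 9740 genes (0.0411%) passed and 1461 had an unadjusted p below 0.05. The Il1b mean was 2.03-fold higher with the combination (log2 fold change 1.04, interval 0.24 to 1.85, adjusted p = 0.2136). The ranges overlapped, because combination sample 2 (217 RPKM) was below aPD-1 sample 2 (250.2 RPKM). The intervals were -0.23 to 0.89 for Il1rn, -0.56 to 0.77 for Il1r2 and -0.060 to 0.72 for Nlrp3, and the members' median was 0.13 beside -0.042 over all genes. The interaction, which asks whether the effect of the combination exceeds the sum of both treatments on the log scale, passed for 0 members and 0 of 9740 genes (0%). Il1b had the single unadjusted p below 0.05 among the members (1.24, interval 0.18 to 2.31, adjusted p = 0.5879), as did 793 genes, and the members' median was 0.17 beside -0.055 over all genes. That Il1b passed against vehicle with the combination and not with aPD-1 alone is therefore not shown to be a difference between the treatments.

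Compared with 7aaRGD alone, the combination had 5 members higher and 1 lower, beside 13% of all genes higher and 23.5% lower (median 0.44 over the members and -0.068 over all genes). The sample ranges did not overlap for 6 of the 10 members, beside 40.4% of all genes. Il1b was at 113, 114, 91.6 and 152 RPKM with 7aaRGD, below every combination sample, and the combination mean was 3.17-fold higher (log2 fold change 1.60, SE 0.35, adjusted p = 0.003474). Il1rn was at 19.9, 16.1, 13.2 and 27.8 RPKM with 7aaRGD (1.69, SE 0.24, adjusted p = 0.0002365), and Il1r2 at 108, 44.4, 51.3 and 57.4 RPKM (-1.66, SE 0.29, adjusted p = 0.0008483). Neither overlapped with the combination. Casp1 (0.65, adjusted p = 0.002239) and Casp4 (0.50, adjusted p = 0.002866) were higher without overlap. Nlrp3 was higher by 0.50 (adjusted p = 0.03428), but the call was lost without 7aaRGD sample 2 (0.45, adjusted p = 0.07401) or 3 (0.39, adjusted p = 0.0882), and without combination sample 1 (0.42, adjusted p = 0.131) or 3 (0.46, adjusted p = 0.107).

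**Figure D3:**
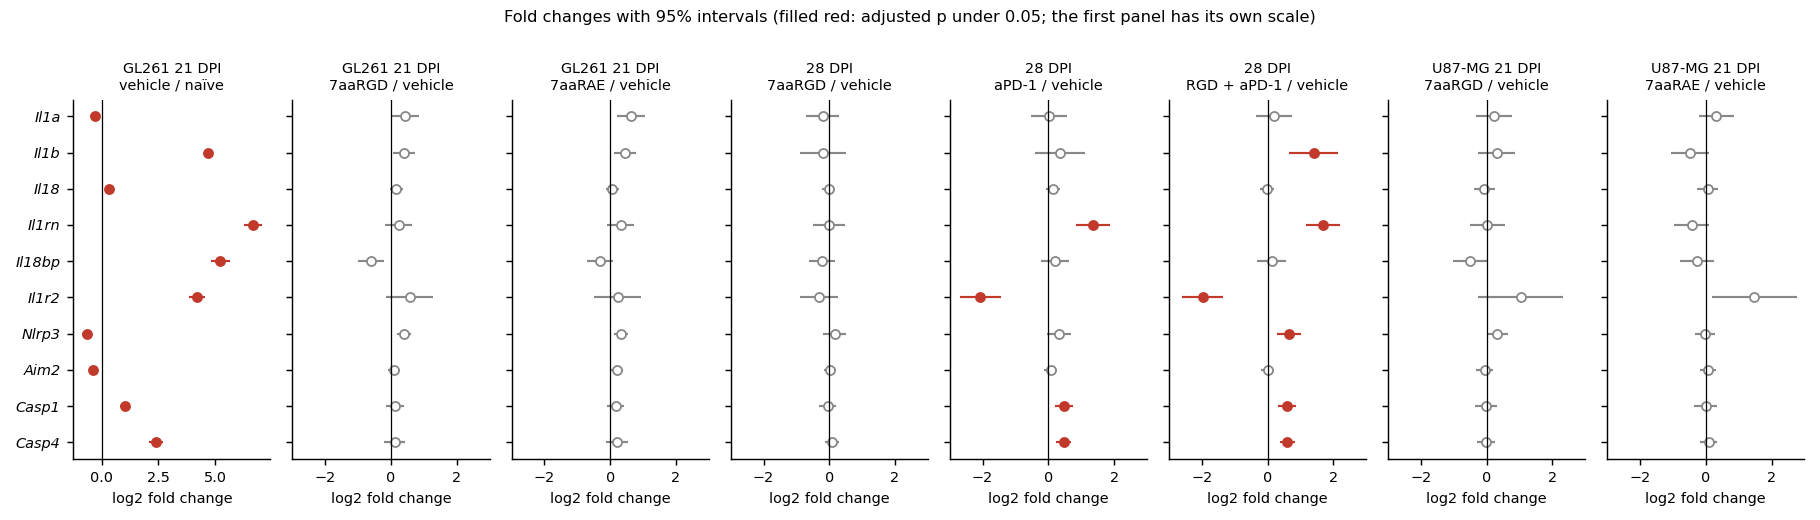
Log2 fold changes (horizontal axis, the first panel on its own scale) of the 10 genes (rows) in 8 comparisons, with 95% intervals; filled points have an adjusted p below 0.05. All 10 points are filled for vehicle against naïve, 4 for aPD-1 against vehicle, 6 for RGD + aPD-1 against vehicle and none in the 5 peptide comparisons.

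Markers of other cells moved in the same samples, and their part in the results was not tested. Neutrophil markers summed to between 223 and 447 RPKM with vehicle, 127 and 376 RPKM with 7aaRGD, 269 and 419.6 RPKM with aPD-1 and 203 and 349 RPKM with the combination. Of 10 neutrophil genes tested 1 was higher and 0 lower with aPD-1, and 1 higher and 1 lower with the combination. Monocyte markers summed to between 125 and 226 RPKM with vehicle, 344 and 456 RPKM with aPD-1 and 398 and 544 RPKM with the combination (4 of 6 higher in each). Interferon response genes summed to between 501 and 729, 817 and 1111, and 952 and 1155 RPKM in the same order (7 of 9 higher in each). Markers of NK and T cells summed to between 2.68 and 12.1 RPKM with vehicle, 2.99 and 72.4 RPKM with aPD-1 (0 of 6 tested higher) and 28.1 and 88.0 RPKM with the combination (5 of 6 higher). Microglial markers summed to between 1567 and 2236 RPKM with vehicle, 1830.5 and 3246 RPKM with 7aaRGD (1 of 9 higher), 1795 and 2579 RPKM with aPD-1 (2 of 9 higher) and 2397 and 2545 RPKM with the combination (6 of 9 higher). Immediate early genes summed to between 541 and 825 RPKM with vehicle, 514 and 768 RPKM with aPD-1 and 779 and 1022 RPKM with the combination, where 5 of 8 were higher and 1 lower. Dendritic cell markers summed to between 1.21 and 2.86 RPKM with vehicle, 4.04 and 17.4 RPKM with aPD-1 and 12.4 and 16.6 RPKM with the combination (2 of 2 tested higher in each), and B cell markers stayed at or below 0.500 RPKM. With 7aaRGD alone the sums were 180.4 to 354 RPKM for monocytes, 467 to 687 RPKM for interferon response genes and 2.02 to 11.5 RPKM for NK and T cells. They were 1.11 to 3.28 RPKM for dendritic cells and 558 to 763 RPKM for immediate early genes. Against 7aaRGD alone, the combination had 3 of 6 monocyte, 8 of 9 interferon response and 6 of 6 NK and T cell genes higher. So were 2 of 2 dendritic cell, 4 of 8 immediate early and 2 of 9 microglial genes. Of 10 neutrophil genes 1 was higher and 1 lower.

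Among the surrounding genes, those of the inflammasome list were more often higher than lower with aPD-1. Of 20 other inflammasome genes tested, 10 were higher and 1 lower with aPD-1 (median log2 fold change 0.31), led by Gbp5 (1.32), Gbp2 (1.28), Nlrp1b (0.94), Mefv (0.86), Nlrp1a (0.79) and the pore-forming gasdermin gene Gsdmd (0.45). With the combination 10 were higher and 1 lower (median 0.27), led by Gbp5 (1.71), Gbp2 (1.53), Nlrp1a (1.08), Mefv (0.91) and Nlrp1b (0.59), with the channel gene Panx1 lower (-0.63). Against 7aaRGD alone 9 were higher and 1 lower (median 0.16), led by Gbp5 (1.66), Gbp2 (1.50), Nlrp1a (1.11), Mefv (1.00), Nlrc4 (0.55) and Nlrp1b (0.52). The adaptor gene Pycard, which joins sensors to caspase-1, was at 34.4 ± 3.17 RPKM with vehicle (SD, n = 4) and 39.2 ± 5.69 RPKM with aPD-1 (SD, n = 3) and did not pass (0.18, adjusted p = 0.3026).

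Of 13 genes of IL-1 receptors and signaling tested, 1 was higher and 2 lower with aPD-1 (median -0.10): the inhibitor Irak3 was higher by 0.55 and the kinase genes Irak2 (-0.33) and Irak1 (-0.17) were lower. With the combination 1 was higher and 4 lower (median -0.12), with Irak3 at 0.83, Tab1 at -0.75, Irak1 at -0.42, Irak2 at -0.32 and Tollip at -0.23. Against 7aaRGD alone Irak3 was again higher (0.79), and Tab1 (-0.61), Irak1 (-0.39), Tab3 (-0.32), Tollip (-0.29) and Tab2 (-0.29) were lower. Of 3 other IL-1 family genes tested none passed in limma, and Il36g had the largest values, 0.58 with aPD-1 (adjusted p = 0.3392), 0.98 with the combination (adjusted p = 0.07371) and 0.87 against 7aaRGD alone (adjusted p = 0.118). In the remaining comparisons of the experiment none of the 3 lists had a gene that passed. The largest values were Tab3 (0.21), Il1rl2 (-0.15) and Panx1 (-0.23) for 7aaRGD against vehicle, Tab1 (-0.43), Il36g (0.40) and Gbp5 (0.38) for the combination against aPD-1, and Myd88 (-0.31), Il18rap (-0.33) and Nlrp1b (-0.42) for the interaction.

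In U87-MG gliomas of nude mice none of the 10 genes passed in any comparison. In limma 0 of 10 members and 0 of 9668 genes (0%) passed between 7aaRGD and vehicle (1 member and 365 genes at an unadjusted p below 0.05), and 0 of 10 members and 1 gene (0.0103%) between 7aaRAE and vehicle (1 member and 746 genes). Between the peptides 0 of 10 members and 0 genes (0%) passed (2 members and 327 genes). The members' medians were 0.001, 0.024 and -0.10, beside -0.003, -0.004 and -0.004 over all genes.

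Il1b was at 139.7, 146 and 140.4 RPKM with vehicle, at 125, 152 and 282 RPKM with 7aaRGD and at 88.0, 106 and 112 RPKM with 7aaRAE. All 3 samples with 7aaRAE were below the other 6, and vehicle lay inside the range of 7aaRGD. The log2 difference of 7aaRGD from 7aaRAE was 0.79 (interval 0.22 to 1.35, adjusted p = 0.9999), and that of 7aaRAE from vehicle was -0.48 (interval -1.05 to 0.086, adjusted p = 0.6703). Nlrp3 was at 28.0, 23.2 and 26.0 RPKM with 7aaRGD and at 22.2, 17.5 and 20.3 RPKM with 7aaRAE, also without overlap (0.35, interval 0.030 to 0.67, adjusted p = 0.9999). These were 2 of 10 members without overlap between the peptides, beside 6.46% of all genes. Il1r2 was low, at 0.390, 1.31 and 1.46 RPKM with vehicle, 0.752, 5.06 and 5.37 RPKM with 7aaRGD and 3.09, 10.9 and 2.53 RPKM with 7aaRAE. It did not overlap between 7aaRAE and vehicle, as did Il1b (2 of 10 members beside 16.5% of all genes), with a log2 difference of 1.48 (interval 0.18 to 2.78, adjusted p = 0.57). For 7aaRGD and vehicle the difference of Il1r2 was 1.03 (interval -0.27 to 2.33, adjusted p = 0.9409), with overlap through 7aaRGD sample 1.

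The inhibitors Il1rn and Il18bp were low in this model. Il1rn was at 2.83, 3.62 and 4.16 RPKM with vehicle, 2.83, 2.80 and 5.56 RPKM with 7aaRGD and 3.07, 1.71 and 2.38 RPKM with 7aaRAE. Il18bp was at 3.63, 2.14 and 3.37 RPKM with vehicle, 1.99, 2.6 and 1.06 RPKM with 7aaRGD and 3.06, 1.91 and 2.11 RPKM with 7aaRAE. The groups overlapped for both genes. The interval between 7aaRGD and vehicle was -0.50 to 0.55 for Il1rn and -1.02 to 0.009 for Il18bp. Il1a ranged from 30.6 to 57.5 RPKM over the 9 samples, Il18 from 7.75 to 12.1 RPKM, Casp1 from 7.46 to 11.2 RPKM and Casp4 from 4.26 to 5.92 RPKM. Aim2 was at 16.2, 16.0 and 16.8 RPKM with vehicle, 15.7, 15.7 and 15.3 RPKM with 7aaRGD and 15.9, 20.7 and 15.0 RPKM with 7aaRAE. It was the 1 member of 10 without overlap between 7aaRGD and vehicle, beside 10.8% of all genes (log2 difference -0.064, interval -0.31 to 0.18, adjusted p = 0.9513). Interferon response genes summed to between 36.1 and 219.7 RPKM over the U87-MG samples, and microglial markers to between 6559 and 10918 RPKM. Monocyte markers summed to between 259 and 355 RPKM with vehicle, 242 and 592 RPKM with 7aaRGD and 254 and 537 RPKM with 7aaRAE. Of 6 monocyte genes, 3 had a log2 fold change above 0 with 7aaRGD (median 0.037) and 1 with 7aaRAE (median -0.49) against vehicle. Between the peptides 5 were higher with 7aaRGD (median 0.73), and 0 passed in any of these comparisons. Immediate early genes summed to between 1136 and 1631 RPKM with vehicle, 1634 and 2432 RPKM with 7aaRGD and 1543 and 2272 RPKM with 7aaRAE, and markers of NK and T cells to between 8.41 and 24.3 RPKM with vehicle, 1.68 and 8.19 RPKM with 7aaRGD and at most 2.40 RPKM with 7aaRAE. Neutrophil markers summed to between 276 and 286 RPKM with vehicle, 185 and 545 RPKM with 7aaRGD and 196 and 305 RPKM with 7aaRAE. Csf3r made up most of the vehicle sum, with means of 217, 185 and 171 RPKM in this order. Of 10 neutrophil genes tested, 9 had a log2 fold change above 0 with 7aaRGD against vehicle (median 0.86). The number was 6 with 7aaRAE against vehicle (median 0.12), and 0 passed in either comparison. The part of these cells in the values was not tested. No gene of the surrounding lists passed (limma, 0 in each list). The largest values were Traf6 (0.18), Il18rap (0.21) and Gbp2 (-0.80) for 7aaRGD against vehicle, Traf6 (0.20), Il18rap (0.92) and Mefv (-0.54) for 7aaRAE against vehicle, and Irak3 (0.26), Il18rap (-0.71) and Mefv (0.75) between the peptides.

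**Figure D4:**
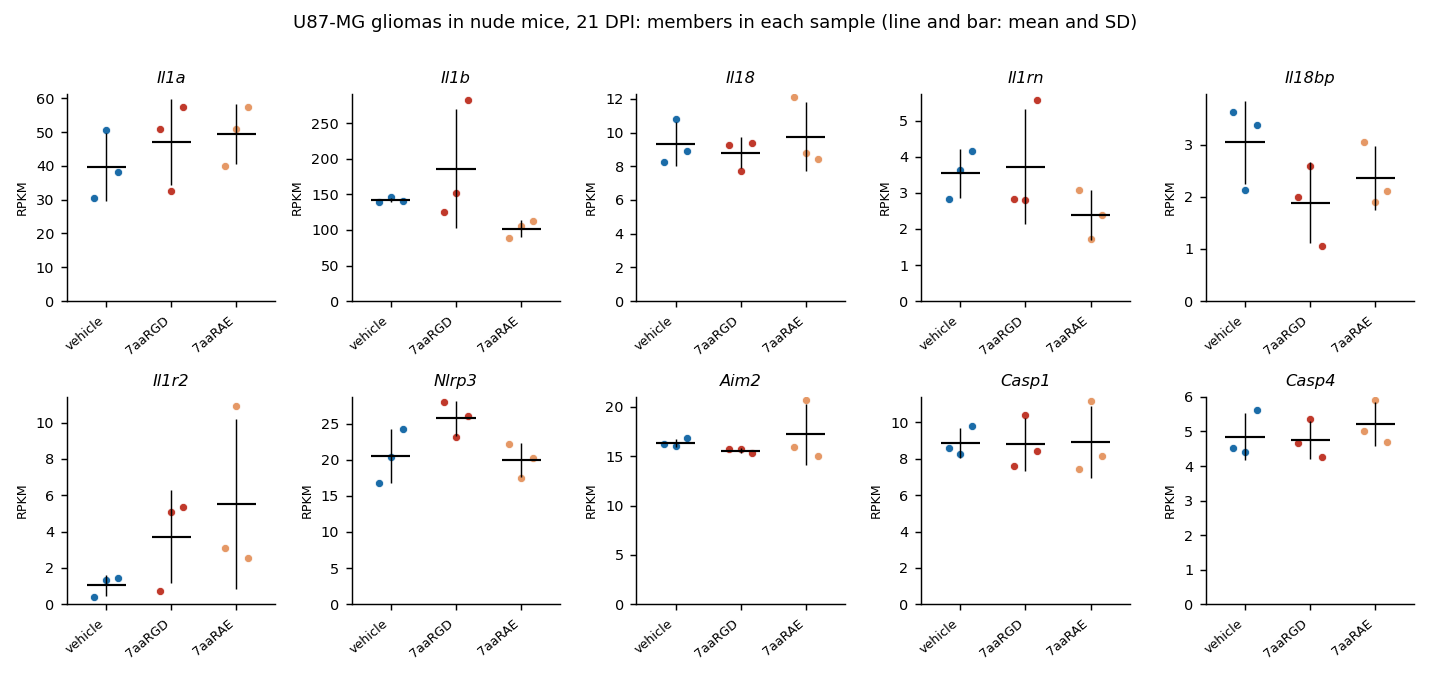
RPKM (vertical axis, starting at 0) of the 10 genes in each U87-MG sample; points are samples, lines are means and bars SD (n = 3). The 3 groups overlap for most genes, and all Il1b values with 7aaRAE (88.0 to 112 RPKM) lie below those of the other groups.

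The balance of each inhibitor and its ligand was described as a log2 ratio per sample, with 1 RPKM added to both levels, and without a test. The naïve means of Il1rn (0.220 RPKM) and Il18bp (0.566 RPKM) lay below this added 1 RPKM. The size of the naïve ratios therefore depends on that constant, and their order beside the U87-MG ratios cannot be read from these values. In GL261 the Il1rn to Il1b ratio was -3.86 ± 0.15 in naïve samples and -1.87 ± 0.33 with vehicle (SD, n = 3), so that transcripts of the antagonist stayed below those of the ligand in both. It was -2.04 ± 0.15 with 7aaRGD and -1.99 ± 0.20 with 7aaRAE. The Il18bp to Il18 ratio crossed 0, from -3.46 ± 0.04 in naïve samples to 1.41 ± 0.37 with vehicle, and was 0.64 ± 0.12 with 7aaRGD and 1.03 ± 0.15 with 7aaRAE. The 7aaRGD samples (0.53 to 0.76) lay below all vehicle samples (1.00 to 1.73).

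At 28 DPI the Il1rn to Il1b ratio was -2.77 ± 0.91 with vehicle (SD, n = 4), with vehicle sample 1 at -4.12, and -2.58 ± 0.17 with 7aaRGD (SD, n = 4). It was -1.77 ± 0.69 with aPD-1 and -2.48 ± 0.64 with the combination (SD, n = 3), and the groups overlapped. The Il18bp to Il18 ratio was between 1.18 and 2.19 in all 14 samples. In U87-MG both ratios were below 0 in every sample. The Il1rn to Il1b ratio had means of -4.99 ± 0.21 with vehicle, -5.27 ± 0.20 with 7aaRGD and -4.94 ± 0.44 with 7aaRAE (SD, n = 3), and the Il18bp to Il18 ratio -1.36 ± 0.48, -1.80 ± 0.53 and -1.68 ± 0.08. The tables were normalized separately, so levels are set side by side across them without a test.

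**Figure D5:**
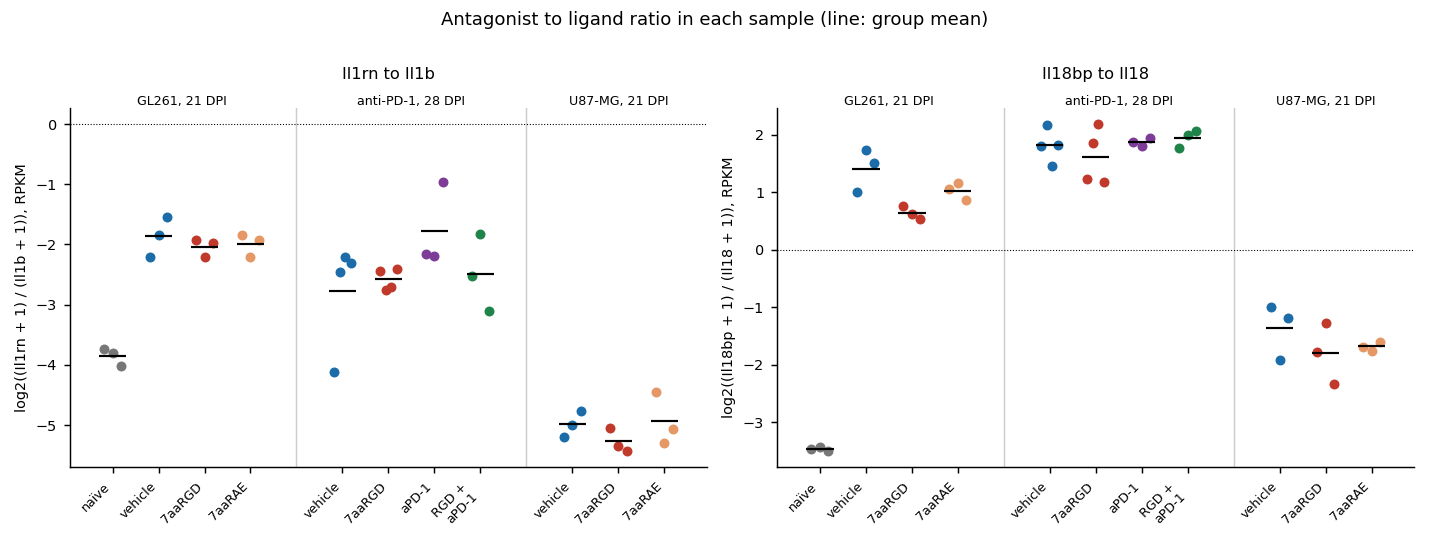
Log2 ratio of inhibitor to ligand (vertical axis, RPKM + 1) in each sample of the 3 tables, for Il1rn to Il1b and Il18bp to Il18; points are samples and lines group means. The Il18bp to Il18 ratio is above 0 in every GL261 tumor sample of 21 DPI and every sample of 28 DPI, and below 0 in naïve and U87-MG samples, whereas the Il1rn to Il1b ratio is below 0 in all 35 samples. Both inhibitors were below 1 RPKM in naïve samples, so the size of the naïve ratios depends on the added 1.

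The order of the 10 genes by level was led by Il1b in every tumor-bearing group. Its mean ranked between 55 and 380 among the 21907 protein-coding genes, and in naïve samples it ranked 2517, behind Nlrp3 (1277) and Il1a (1483). In GL261 gliomas with vehicle Il1rn followed (126 ± 33.2 RPKM) and then Il18bp (59.0 ± 15.7 RPKM), whose samples did not overlap. The next genes, Il1r2, Il1a, Nlrp3, Il18, Casp4 and Casp1, had means between 19.4 and 25.7 RPKM and overlapping samples, and Aim2 (10.8 ± 0.960 RPKM, SD, n = 3) was below them. At 28 DPI with vehicle the order after Il1b was Il1r2 (77.9 ± 19.6 RPKM) and Il18bp (64.5 ± 10.9 RPKM), which overlapped, then Il1a (36.8 ± 6.12 RPKM, SD, n = 4). With aPD-1 Il1r2 fell to 18.1 ± 6.94 RPKM (SD, n = 3) and overlapped with Casp1, Il18 and Aim2, among others. In U87-MG with vehicle Il1a (39.7 ± 10.1 RPKM) followed Il1b without overlap, and Il1r2 was lowest (1.05 ± 0.580 RPKM, SD, n = 3).

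Among the members, Casp1 and Casp4 varied together over the tumor-bearing samples. Pearson's r of log2(RPKM + 1) was 0.91 in GL261 (n = 9), 0.84 at 28 DPI (n = 14) and 0.76 in U87-MG (n = 9). After group means were removed it was 0.90, 0.34 and 0.80. Il1b and Nlrp3 had r of 0.80, 0.86 and 0.38, and 0.50, 0.77 and -0.12 within groups. Il1a and Il1b had r of 0.90, 0.47 and 0.16, and 0.81, 0.33 and 0.46 within groups. Il1rn and Il1r2 had r of -0.85 at 28 DPI and -0.04 within its groups. These coefficients describe few samples that share treatments and libraries.

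Leaving out the members themselves, the genes most like each member were ranked by the mean of the r values of the 3 tables (35 samples, 9063 genes, all samples with naïve ones included). They were Gpr132 (0.91) and Tnfaip2 (0.89) for Il1b, Sema4a and Glipr2 (0.92 each) for Il1rn and Jaml (0.90) and Galnt6 (0.89) for Il1r2. For Casp1 they were Klra2 and Aida (0.91 each), and for Casp4 Aida (0.92) and Twsg1 (0.88). Il18bp was closest to Cd200r4 (0.77) and Tap1 (0.76), Il18 to Ifi204 (0.79) and Ifih1 (0.73), Nlrp3 to Gabarapl2 (0.76) and Ctbp2 (0.70), and Aim2 to G2e3 (0.79) and Senp2 (0.77). Il1a had no close neighbor among these genes, with Src (0.53) and Fastkd2 (0.51) as the nearest.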

How the data were processed

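Stranded poly-A libraries of sorted CD11b+ cells were analysed from 35 samples. Per the labels and the study's methods, Trimmomatic was used for trimming, STAR for alignment to mm10 and HTSeq-count 0.11.1 for reverse stranded counting; the normalization is not given in the sources used here. The deposited values behave as RPKM plus 2, since rows without signal hold exactly 2. A constant of 2 was subtracted and negative results (4.5% to 5.2% of the values of protein-coding genes) were set to 0. Within groups the values varied in 7 of 8 possible dimensions in the GL261 table and 9 of 10 in the 28 DPI table, so fits with 1 residual degree of freedom less were run as an alternative. Whether a component had been taken out before deposit was not tested.

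Differences were tested within each table with limma 3.58.1 in R 4.3.3 (lmFit, eBayes with trend) on log2(RPKM + 1). Protein-coding genes entered if their mean over the fitted samples reached 1 RPKM, and p-values were adjusted over all of them (Benjamini-Hochberg, 0.05). All tumor-bearing groups were fitted together, and vehicle against naïve alone. The study used NOISeq, which was not run here. A fold is the ratio of mean RPKM, while log2 fold changes include the added 1 and understate changes of low genes. Standard errors and intervals are moderated. Samples of U87-MG are numbered by column order, since their columns share names. Residuals of same-numbered samples correlated above 0.1 in 1 of 9 pairs in GL261 and 3 of 19 at 28 DPI. The lowest correlations were -0.774 and -0.499. Since a component may have been taken out before deposit, they cannot show whether numbers paired samples. The main fits used no pairing.

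The members and lists were chosen with earlier results of these data known. All members are named. Of each surrounding list the genes that passed are named (at most the 6 with the largest change), or the gene with the largest value where none passed. For each member the 2 genes outside the members with the highest mean correlation are named. Gene positions are those of GENCODE M21 (mm10).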

Additional observations from a re-analysis of the deposited data

Results flagged for a closer look

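In the 4 vehicle samples of the 28 DPI experiment, Il1b was 226 RPKM in sample 1, far above the other 3 (104 to 119 RPKM). The gap to the nearest sample was 0.873 of the range, beyond the 95% critical value of Dixon's test for 4 samples. It was the single such value among 20 tested (10 genes in 2 groups of 4), and chance gives about 1 in 20 groups. The same sample had the lowest Il1rn of its group (12 RPKM).

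Il1b differed from vehicle in opposite directions with 7aaRAE in the 2 models. The log2 difference was 0.45 in GL261, where every 7aaRAE sample was above every vehicle sample, and -0.48 in U87-MG, where every 7aaRAE sample was below every vehicle sample. The difference between the models was not tested, since the tables were normalized separately and the models differ in strain and tumor line, and neither value passed the adjusted test within its table.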

How the results depend on the processing

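The number of members that passed stayed within 1.5 times its value under all alternatives run (other pseudocounts, filters, scalings, gene sets and samples fitted, 1 residual degree of freedom less, each sample left out). It ranged from 9 to 10 for vehicle against naïve and from 3 to 4 for aPD-1 against vehicle, was 6 throughout for the combination against vehicle, ranged from 5 to 6 for the combination against 7aaRGD, and was 0 throughout elsewhere. Of 422 alternative values of the 26 fold changes that passed, 410 passed in the same direction, 12 kept the direction without passing and 0 reversed. Those 12 belong to Il1a (vehicle against naïve), Casp1 (aPD-1 against vehicle) and Nlrp3 (combination against 7aaRGD). Besides the values given above, Nlrp3 did not pass without a filter on low values (adjusted p = 0.05959); the larger number of genes tested is part of that alternative. Of 1756 alternative values of the 104 fold changes that did not pass, 0 passed and 85 changed sign, none beyond 0.24 in size.

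Counts over all genes were less stable. The 14 genes of 7aaRGD against vehicle in GL261 became 0 with TMM or median-of-ratios factors, the block or 1 residual degree of freedom less, 45 without a filter and 74 with naïve samples added. The 63 genes of the same comparison at 28 DPI became 0 with these factors, the block, 1 residual degree of freedom less or only the groups compared. The 4 genes of the combination against aPD-1 became 26 without combination sample 2 and 0 to 3 without any other sample of these groups, and the 2246 of aPD-1 against vehicle became 1356 without aPD-1 sample 2.

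With the replicate number as a block, 10 members passed for vehicle against naïve, 3 for aPD-1 against vehicle, 6 for the combination against vehicle and 6 for the combination against 7aaRGD. In the other GL261 and 28 DPI comparisons 0 passed. The block changed 1 call, that of Casp1 with aPD-1 (0.43, adjusted p = 0.06297). Correlations of same-numbered residuals ran from -0.774 to 0.123 in GL261 and from -0.499 to 0.366 at 28 DPI. They do not settle whether a shared number pairs samples. The block could not be fitted in U87-MG, because the columns carry no replicate number in that table.

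Groups of 3 or 4 samples and unknown depth limit these tests. For Il1r2 in U87-MG the interval of the 7aaRGD difference from vehicle ran from -0.27 to 2.33, and a gene that did not pass is not shown to be equal.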
